A study of Mus musculus with 12 samples.

Results

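C-type lectin receptors are membrane proteins of myeloid cells, natural killer cells and platelets that carry a C-type lectin-like domain, a fold that in many of them binds sugars in the presence of calcium. Activating members signal through an ITAM, a tyrosine motif that recruits the kinase SYK. The motif lies on a partner adaptor (the Fc receptor gamma chain or DAP12) or, as a single copy called hemITAM, in the receptor's own tail. Inhibitory members carry an ITIM, which recruits phosphatases such as SHP-1. In monocytes, macrophages and neutrophils these receptors recognise fungal and mycobacterial glycans and material from dead cells.

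The genes described are the rows of the authors' table whose name begins with Clec, with 1 such row left out, which gave 31 of 24221 rows. They were divided by name into 11 Clec4 genes, 4 genes of the Clec5, Clec7 and Clec12 types, and 16 others. The table compares mouse acute myeloid leukaemia cells on the C57BL/6 background that carry the MLL-AF9 fusion and loxP-flanked Riok2 alleles (Riok2fl/fl). They had received either hydroxytamoxifen (OHT) or its solvent ethanol (EtOH) for 72 h, with 3 samples in each group. OHT switches on tamoxifen-dependent Cre recombinases, but the labels do not name the Cre, and both groups share the floxed alleles and the fusion. Whether replicates were grown as separate cultures, or the cells descend from 1 clone, is not stated in the labels, so p-values reflect the scatter among these samples only, and that scatter may be technical. The remaining samples, cells given DMSO or a RIOK2 inhibitor, are not analysed here.

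For each gene the table holds a base mean, which is the read count after scaling for library depth averaged over the libraries of both groups, and the log2 ratio of the groups (the fold change) together with a standard error (SE) of that ratio. The numerator is not named. Riok2 stood at -3.60 ± 0.20 (SE) in the authors' deposited table, so positive values are taken to mean higher in OHT. A gene was called higher or lower where the authors' adjusted p was below 0.05. No SE in the authors' deposited table exceeds 0.747, even for genes with a single read, as happens where folds are shrunken towards 0. Folds of scarce or variable genes may therefore be understated, and with them the distance between the computed levels of the groups. Effects of losing Riok2 and of OHT itself cannot be told apart with these groups. The 11 identity genes of myeloid leukaemia cells were all present, with base means in the authors' deposited table of 321 (Cd34) to 19357 (Itgam). Of these 11 genes, 6 were higher and 3 lower in that table (54.5% and 27.3%), beside 25.5% and 23.4% of all genes tested. The largest rises there were the myeloid surface genes Itgam (2.44 ± 0.12), Cd33 (1.83 ± 0.18), Csf3r (1.52 ± 0.24) and Fcgr3 (1.14 ± 0.15). The falls in the authors' deposited table were Hoxa9 (-0.55 ± 0.19), Hoxa10 (-0.42 ± 0.14) and Meis1 (-0.41 ± 0.14), genes of the MLL-AF9 programme. The part of these changes in the Clec results was not tested.

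Of the 31 Clec genes, the authors' deposited table gives 24 an adjusted p, and 14 of these were higher and 4 lower in OHT. Over all 13814 genes tested there, 25.5% were higher and 23.4% lower, 48.9% in all. The median log2 fold change was 1.32 for the 24 Clec genes and 0.05 for all genes tested in the authors' deposited table. Where the base mean reached 100, 12 of 14 Clec genes were higher and 2 lower in the authors' deposited table, beside 29.2% and 30.0% of 9888 genes. At an adjusted p below 0.01 the members counted 12 higher and 1 lower, beside 20.7% and 19.1% of all genes tested (39.8% in all). With a log2 fold change of at least 1 in size as well as an adjusted p below 0.05 they counted 13 and 3, beside 13.6% and 7.30% (20.9% in all). Of the remaining 7 members, Clec1a, Clec4g and Clec18a had a p-value with no adjusted p, at base means of 0.165 to 1.92. Clec14a, Clec2e, Clec2h and Clec4f were listed at 0. In bulk RNA, more cells of a type and more RNA per cell cannot be told apart, and this holds for each result below.

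**Figure D1:**
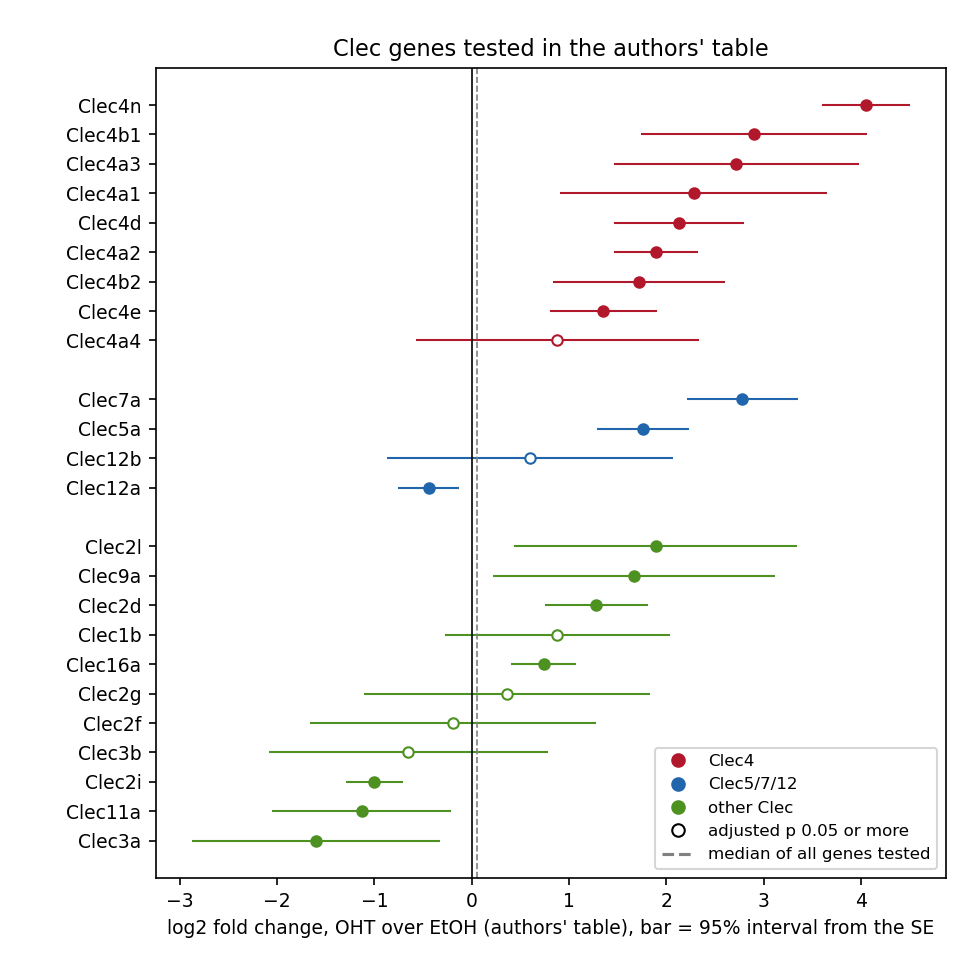
Log2 fold change (OHT over EtOH) of the 24 tested Clec genes in the authors' deposited table, by name group, with 95% intervals computed from the SE; filled points have an adjusted p below 0.05 and the dashed line is the median of all genes tested (0.05). All 9 Clec4 points lie above 0, while the Clec5/7/12 and other groups hold points on both sides.

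The Clec4 genes were the group with the greatest share of rises. Of its 11 members 9 were tested, 8 were higher and 0 were lower in the authors' deposited table, where the counts at an unadjusted p below 0.05 were also 8 and 0. That is 88.9% and 0%, beside 25.5% and 23.4% of all genes tested. The 9 tested Clec4 genes had a median log2 fold change of 2.13, with a range of 0.88 to 4.05. These 9 genes lie side by side on chromosome 6 between 122921848 and 123289870 (GRCm38, the assembly that mm10 names; gene models from GENCODE M21). The 4 other genes annotated in that stretch have no row among those used.

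The activating receptors that pair with the Fc receptor gamma chain all rose. Clec4n, which encodes the mannan receptor Dectin-2 (ENSMUSG00000023349.14, chromosome 6, 123229843 to 123247021, plus strand), stood at 4.05 ± 0.23 on the log2 scale (base mean 8826, adjusted p = 1.5e-65) in the authors' deposited table. That is 16.5-fold, with a 95% interval of 12.1 to 22.7 from the SE. Only 10 of the 13814 genes tested had a higher fold change in that table. With equal group sizes, a base mean and a fold give a level for each group, and for Clec4n these were 1006 normalised reads in EtOH and 16646 in OHT.

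Clec4d encodes MCL, also called Dectin-3, which binds mycobacterial cord factor and works together with Mincle. It stood at 2.13 ± 0.34 (base mean 1080, adjusted p = 4.3e-09) in the authors' deposited table, or 4.37-fold (95% interval 2.75 to 6.94). Clec4e encodes Mincle itself, an inducible receptor for cord factor and for a protein of dead cells. At 1.35 ± 0.28 (base mean 1049, adjusted p = 9.2e-06) in the authors' deposited table, or 2.56-fold (1.74 to 3.76), it had the lowest fold of the 8 called Clec4 genes. Clec4d, Clec4e and Clec4n are neighbours within the cluster, and their 95% intervals place Clec4n above both of the others. The 3 genes share libraries, so this ordering was not tested.

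The Clec4a and Clec4b subfamilies, expanded in the mouse, rose as well. Clec4a2 encodes the ITIM receptor DCIR and stood at 1.89 ± 0.22 (base mean 3117, adjusted p = 3.9e-17) in the authors' deposited table. Its levels computed from base mean and fold were 1321 in EtOH and 4913 in OHT. The related Clec4a3 (2.72 ± 0.64, base mean 654) and Clec4a1 (2.28 ± 0.70, base mean 179) also passed, with adjusted p of 1.0e-04 and 0.00333 in the authors' deposited table. Clec4b1 (2.90 ± 0.59, base mean 114) and Clec4b2 (1.72 ± 0.45, base mean 190) encode the DCAR receptors, which pair with the Fc receptor gamma chain, and passed with adjusted p of 4.2e-06 and 4.2e-04 in the authors' deposited table. Intervals were wide here, from 3.37-fold to 16.6-fold for Clec4b1 and from 1.87-fold to 12.6-fold for Clec4a1. The ninth tested gene, Clec4a4, which encodes the dendritic cell receptor DCIR2, did not pass, at 0.88 ± 0.74 (base mean 5.95, adjusted p = 0.34) in the authors' deposited table.

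How far reads of these relatives could be confused was measured on GENCODE M21 transcripts, as the share of a gene's 50-base words that also occur in a transcript of another gene. It was 15.7% for Clec4a4 and 6.83% for Clec4a2, which share most with each other, and 8.68% for Clec4b1, shared with Clec4a2. The share was 0 for Clec4a1, Clec4a3, Clec4b2, Clec4d and Clec4e and 0.686% for Clec4n. Fold changes of Clec4a2, Clec4a4 and Clec4b1 are uncertain, because the labels do not say how shared reads were counted. The share is not the size of that uncertainty, which also depends on the level of the relative. Clec4a2 had a base mean of 3117, far above those of Clec4b1 (114) and Clec4a4 (5.95). Members outside the chromosome 6 cluster were scarce: Clec4f, a Kupffer cell receptor, was listed at 0 and the liver endothelial lectin Clec4g had a base mean of 1.87 in the authors' deposited table.

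Of the Clec5, Clec7 and Clec12 genes, with 4 tested, 2 were higher and 1 lower in the authors' deposited table, with a median log2 fold change of 1.18. Clec7a encodes Dectin-1, the hemITAM receptor for beta-glucan of fungal walls. It rose by 2.78 ± 0.29 (base mean 4767, adjusted p = 5.7e-20) in the authors' deposited table, or 6.86-fold (95% interval 4.62 to 10.2). The computed levels were 1213 normalised reads in EtOH and 8321 in OHT. GENCODE M21 lists this gene (ENSMUSG00000079293.11, chromosome 6, 129461591 to 129472779, minus strand) as a polymorphic pseudogene. Clec5a encodes MDL-1, a receptor that signals through DAP12 and DAP10. It rose by 1.76 ± 0.24 (base mean 1808, adjusted p = 2.7e-12) in the authors' deposited table, or 3.38-fold (2.44 to 4.67).

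Clec12a went the other way. It encodes the ITIM receptor MICL, which binds uric acid crystals and is used in human leukaemia as a surface antigen of blasts. Clec12a, whose base mean of 11323 was the highest of the family, stood at -0.44 ± 0.16 in the authors' deposited table (adjusted p = 0.0168). Computed levels were 13040 in EtOH and 9606 in OHT, a 1.36-fold lower level with a 95% interval of 1.09 to 1.70. Clec12b, another ITIM receptor, had 15 reads in all and did not pass, at 0.60 ± 0.75 in the authors' deposited table (adjusted p = 0.53). By signalling type, 3 of 3 receptors listed as Fc receptor gamma chain partners (Clec4d, Clec4e and Clec4n) and the DAP12 partner Clec5a were higher. Of 3 hemITAM receptors over all groups, Clec7a and Clec9a were higher and Clec1b was not called. The call of Clec9a rests on a base mean of 3.91 and an adjusted p of 0.0499. Of 3 genes listed as ITIM receptors, Clec4a2 was higher, Clec12a lower and Clec12b not called. That list leaves out Clec4a4. These lists are short, and over all genes tested 25.5% were higher and 23.4% lower.

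Levels of different genes were compared per kilobase of annotated exon. In EtOH the highest computed level was that of Clec12a, at 2359 normalised reads per kilobase, ahead of Clec2i (726), Clec4n (708), Clec7a (460) and Clec4a2 (452). In OHT it was that of Clec4n, at 11722, ahead of Clec7a (3154), Clec12a (1738), Clec4a2 (1679) and Clec4d (1099). Of all reads assigned to the 31 genes, Clec12a held 59.3% in EtOH and 19.1% in OHT by these computed levels, and Clec4n 4.57% and 33.1%. The sum of the family was 21987 normalised reads in EtOH and 50360 in OHT. No error can be given for these sums, as the table holds no value per sample.

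**Figure D2:**
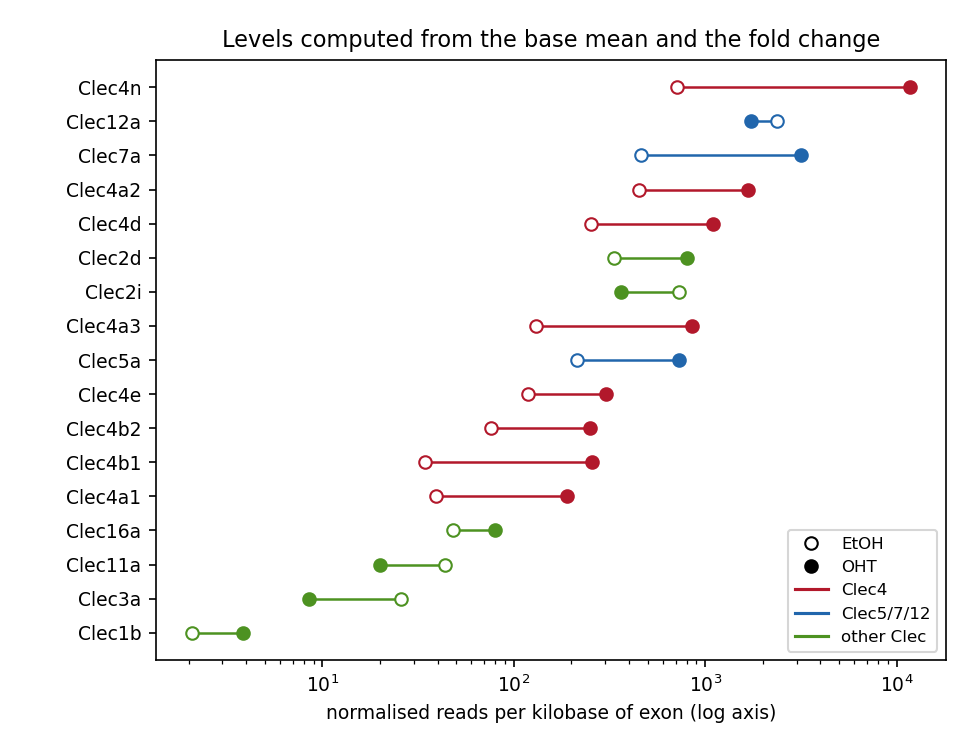
Levels in EtOH (open) and OHT (filled) of the Clec genes whose base mean is at least 10, computed from the authors' base mean and log2 fold change, in normalised reads per kilobase of exon on a log axis. Clec12a is highest in EtOH (2359) and Clec4n in OHT (11722).

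Standard errors were large for most of the genes that rose. Among genes with a base mean of 1000 to 10000 the SE was above the 90th percentile of all genes tested in that range (0.215) for 6 of 7 Clec genes, namely Clec4n, Clec7a, Clec4a2, Clec5a, Clec4d and Clec4e. Among genes of 100 to 1000 it was above the 90th percentile (0.313) for 4 of 6, namely Clec4a1, Clec4a3, Clec4b1 and Clec4b2. For Clec4a1, Clec4a3 and Clec4b1 the SE of 0.70, 0.64 and 0.59 in the authors' deposited table compares with a median of 0.203 for genes of similar level. The 2 abundant genes that fell had ordinary errors, 0.16 for Clec12a and 0.15 for Clec2i, beside band medians of 0.161 and 0.153 in the authors' deposited table. Which library differed, and whether 1 library raised these folds, was not tested, since the table has no values per sample for abundant genes.

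**Figure D3:**
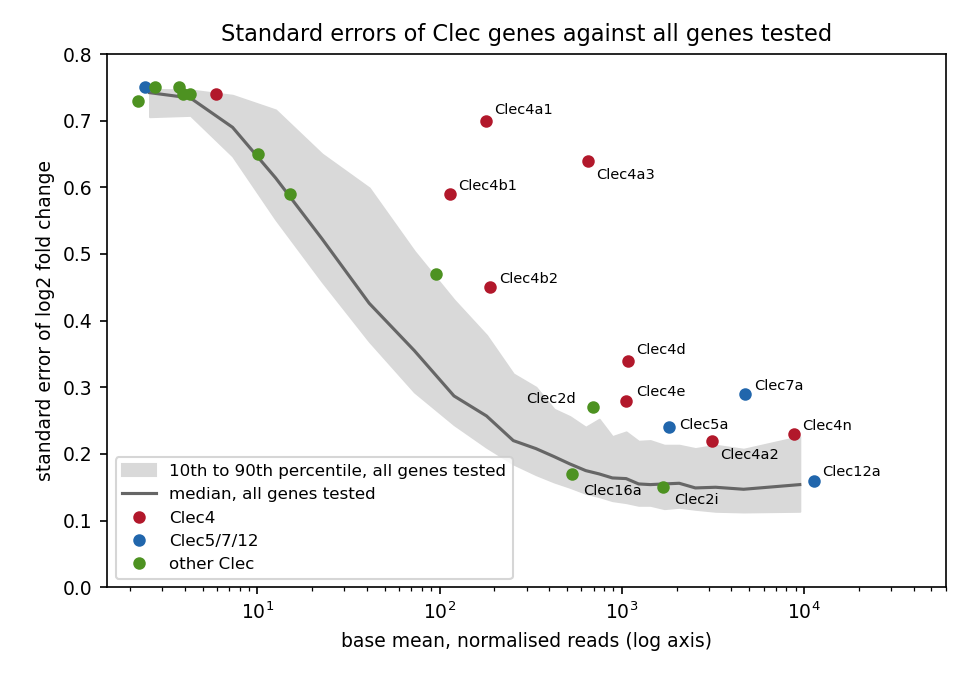
SE of the log2 fold change against base mean (log axis) in the authors' deposited table, with the 24 tested Clec genes over the median and the 10th to 90th percentile band of all genes tested. Clec4a1, Clec4a3 and Clec4b1 lie far above the band, Clec2i and Clec16a lie within it, and Clec12a lies past its right end.

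Of the 16 other Clec genes 11 were tested, and 4 were higher and 3 lower in the authors' deposited table, with a median log2 fold change of 0.36. These shares of 36.4% and 27.3% are near the 25.5% and 23.4% of all genes tested. Several Clec2 genes encode ligands of natural killer cell receptors of the NKR-P1 (Klrb1) family. All Clec2 genes except Clec2l, among them the annotated pseudogene Clec2f, lie in a second cluster of 12 Clec genes on chromosome 6, from 128662385 to 129472779. Clec2d, which encodes Clr-b, a ligand whose loss exposes a cell to natural killer cells, was higher at 1.28 ± 0.27 (base mean 691, adjusted p = 8.4e-06) in the authors' deposited table. Clec2i, which encodes Clr-g, was 2.01-fold lower (95% interval 1.64 to 2.45 from the SE, base mean 1691, adjusted p = 1.3e-10) in the authors' deposited table. Its computed levels were 2257 in EtOH and 1125 in OHT. Clec2d and Clec2i share 1.98% and 4.13% of their 50-base words with other genes.

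Within this second cluster the 9 tested Clec genes had 3 higher, 2 lower and a median of 0.60 in the authors' deposited table. Of 8 tested genes without a Clec name in the same stretch, 2 were higher and 1 lower. Both sets of counts are near the 25.5% higher and 23.4% lower of all genes tested. The lower one was BC035044 (-2.03 ± 0.22, base mean 1278), and the higher ones were Gm15987 (1.56 ± 0.45) and 2310001H17Rik (0.74 ± 0.29) in the authors' deposited table. Cd69, an early activation antigen that also has a C-type lectin-like domain, stood at -0.77 ± 0.36 (adjusted p = 0.064) there. Klrb1f, whose product binds Clr-g, stood at -0.44 ± 0.40 (base mean 126, adjusted p = 0.38) in the authors' deposited table.

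Clec16a and Clec11a have other roles. Clec16a encodes an endosomal regulator of mitophagy, and it was higher at 0.74 ± 0.17 (base mean 535, adjusted p = 4.3e-05) in the authors' deposited table. Clec11a encodes a secreted growth factor of haematopoietic and bone progenitors, and it was lower at -1.13 ± 0.47 (base mean 95.2, adjusted p = 0.0336) in the authors' deposited table. That fall was 2.19-fold, with a 95% interval of 1.16 to 4.12.

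For scarce genes the base mean could be split into whole reads in each of 6 libraries, because a base mean is a sum of whole reads times a fixed step per library. The steps gave size factors, the relative depths, of 1.88, 1.01 and 0.697 for the libraries on the OHT side and 1.11, 0.870 and 0.783 on the EtOH side. The side follows from the sign of the authors' fold for genes with 1 read, and which sample each library is cannot be told. Each of the 11 Clec genes with a base mean above 0 and up to 10.1 had exactly 1 solution.

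Some of these genes differed between the sides in every library and others rested on 1 library. How many of all genes show no overlap between the sides was not counted, so a lack of overlap is only described here. Clec2l, which is mainly known from brain, had 4, 5 and 13 reads on the OHT side (size factors 1.88, 1.01 and 0.697) and 0 in all 3 libraries of the EtOH side. The groups did not overlap, and the library with size factor 0.697 held 59.1% of the reads. Setting 3 reads over the EtOH side in place of 0 gave a ratio of 5.65, with the OHT reads taken as exact. In the authors' deposited table Clec2l stood at 1.89 ± 0.74 (adjusted p = 0.0238), or 3.71-fold (95% interval 1.36 to 10.1). The ratio is therefore not a lower limit of the fold. Clec9a encodes DNGR-1, a hemITAM receptor by which dendritic cells sense the actin of dead cells. Its reads were 18, 6 and 4 on the OHT side and 1, 0 and 1 on the EtOH side (size factors 1.11, 0.870 and 0.783), again without overlap. Clec9a stood at 1.67 ± 0.74 in the authors' deposited table, where its adjusted p of 0.0499 lies at the threshold. An overlap of 184 exonic bases with Clec1b, on the same strand, makes part of its reads uncertain.

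Clec3a, known from cartilage, was the 1 scarce gene with the opposite pattern. It had 4, 5 and 3 reads on the OHT side and 11, 12 and 20 on the EtOH side, and after scaling for depth the OHT libraries (2.13, 4.94 and 4.30) all lay below the EtOH libraries (9.90, 13.8 and 25.5). The authors' log2 fold change was -1.60 ± 0.65 (adjusted p = 0.0303) in their deposited table. Clec1a, of endothelial and myeloid cells, had 8, 3 and 3 reads on the OHT side and 0 in each EtOH library. With 3 reads set over the EtOH side the ratio was 3.60. The authors' table gives Clec1a no adjusted p. It stood there at 1.29 ± 0.70 (unadjusted p 0.0671), or 2.45-fold, with a 95% interval of 0.939 to 6.37 that includes no change.

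Clec4a4 had 11, 0 and 16 reads on the OHT side and 2, 0 and 4 on the EtOH side. The groups overlapped, and 22.9 of its normalised reads fell in the OHT library with size factor 0.697, beside 5.86 and 0 in the other two. Clec3b, which encodes tetranectin, had 0, 2 and 1 reads on the OHT side and 7, 2 and 1 on the EtOH side, with overlap. Clec12b, Clec2f, Clec2g and Clec4g had 13 to 19 reads each, with overlap between the sides, and Clec18a had 1 read. At this depth no difference was detectable for these 7 genes. Clec1b, which encodes the platelet receptor CLEC-2 for podoplanin, was too abundant to be split, and stood at 0.88 ± 0.59 (base mean 15.1, adjusted p = 0.22) in the authors' deposited table.

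**Figure D4:**
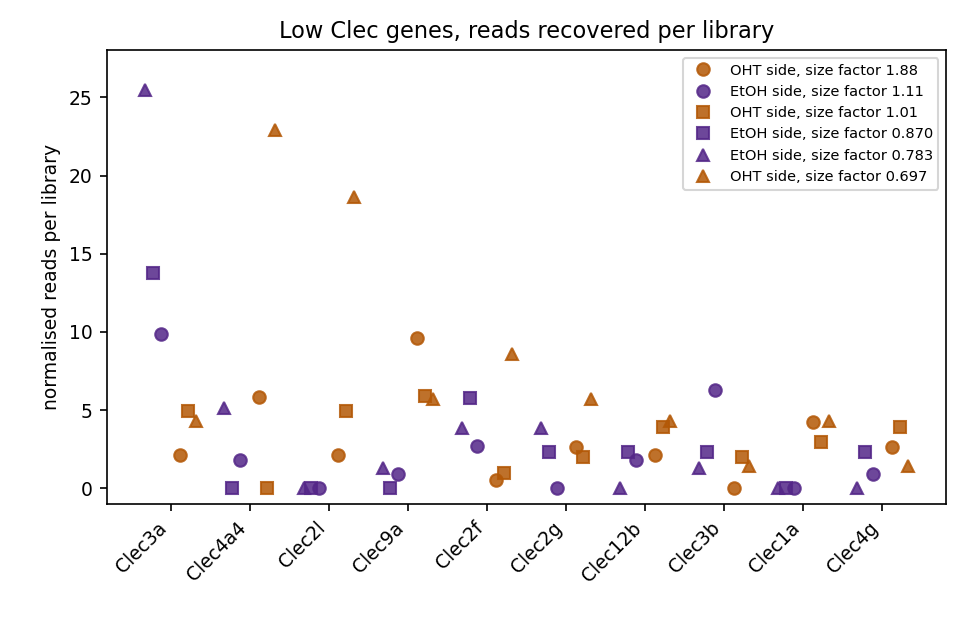
Normalised reads in each of the 6 recovered libraries for the 10 Clec genes with a base mean up to 10.1 and more than 1 read, orange for the OHT side and purple for the EtOH side, with symbols for the size factor. The sides do not overlap for Clec3a, Clec2l, Clec9a and Clec1a, and the OHT library with size factor 0.697 is highest for Clec4a4 (22.9) and Clec2l (18.6). The share of all genes without overlap was not counted.

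Genes that carry the signal of these receptors were counted in the same comparison. Of 36 genes of C-type lectin receptor signalling, all tested, 26 were higher and 0 lower in the authors' deposited table, with 27 higher and 1 lower at an unadjusted p below 0.05. That is 72.2% higher, beside 25.5% higher and 23.4% lower of all genes tested. The median log2 fold change was 0.63, with a range of -0.23 to 2.92, smaller than that of the Clec4 genes. Both ITAM adaptors rose: Tyrobp, which encodes DAP12, by 1.10 ± 0.10 (base mean 10104) and Fcer1g, the Fc receptor gamma chain, by 0.95 ± 0.12 (base mean 8932) in the authors' deposited table. Hcst, which encodes DAP10, did not pass, at 0.52 ± 0.28 (adjusted p = 0.12) there. The kinase Syk rose by 1.15 ± 0.15 (base mean 6110, adjusted p = 4.5e-13) in the authors' deposited table. Among the list's members the greatest rises there were the SRC family kinases Fgr (2.92 ± 0.19) and Src (2.30 ± 0.35), the NF-kB subunit Relb (2.09 ± 0.32) and the transcription factor Irf5 (1.89 ± 0.14).

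CARD9, BCL10 and MALT1 join SYK to NF-kB, and in the authors' deposited table Malt1 rose by 0.69 ± 0.15 while Card9 (0.17 ± 0.20, adjusted p = 0.50) and Bcl10 (0.10 ± 0.18, adjusted p = 0.65) did not pass. The kinase Prkcd, which activates CARD9, rose by 1.49 ± 0.16 in the authors' deposited table (adjusted p = 6.6e-19). On the inhibitory side Ptpn6, which encodes the ITIM phosphatase SHP-1, rose by 0.77 ± 0.16 (base mean 10619), and Ptpn11 stood at -0.07 ± 0.14 in the authors' deposited table (adjusted p = 0.69).

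**Figure D5:**
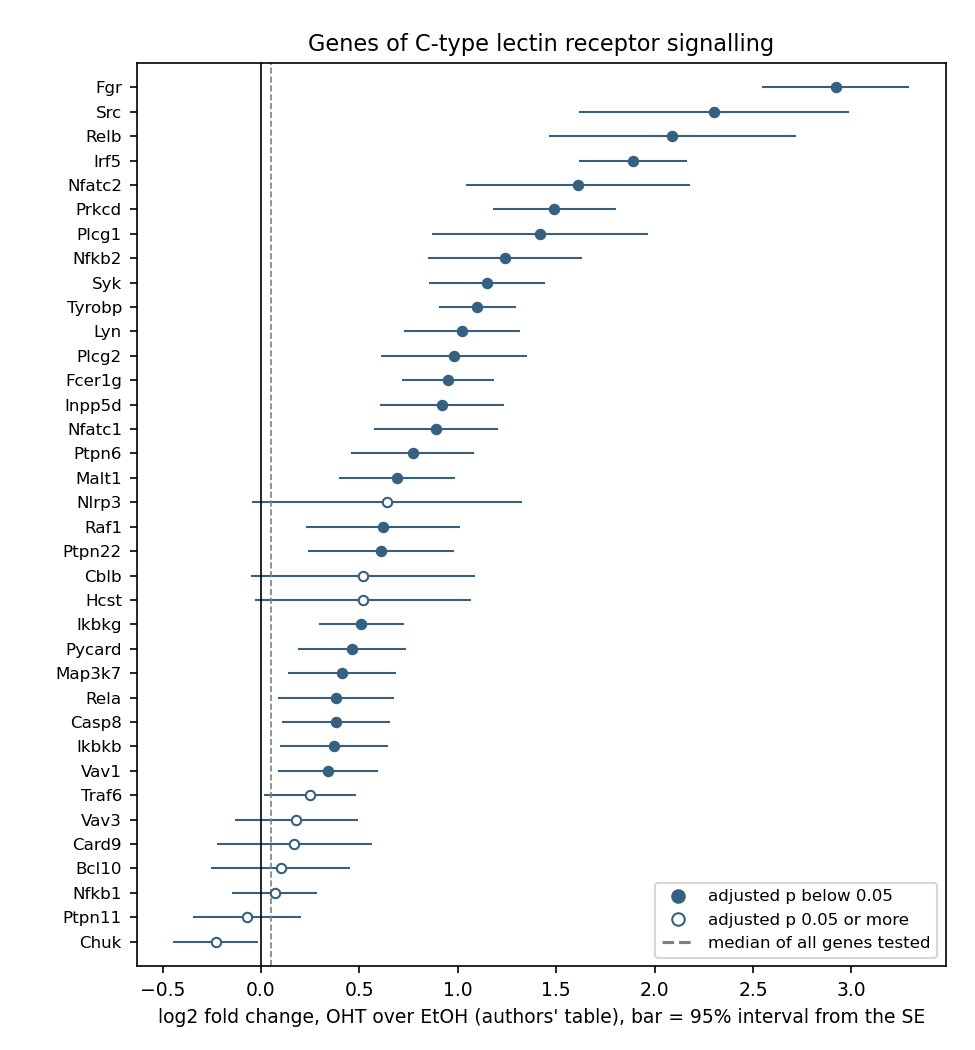
Log2 fold change (OHT over EtOH) with 95% intervals from the SE for 36 genes of C-type lectin receptor signalling in the authors' deposited table; filled points have an adjusted p below 0.05. Fgr is highest (2.92), Card9, Bcl10 and Nfkb1 lie near 0, and Chuk is lowest (-0.23).

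Of 15 cytokine and effector genes known as outputs of these receptors, 12 were tested, 5 were higher and 0 lower in the authors' deposited table (7 and 0 at an unadjusted p below 0.05). That is 41.7% higher, beside 25.5% higher and 23.4% lower of all genes tested. Among those that rose there were Cxcl2 (3.66 ± 0.63), Egr2 (3.00 ± 0.62), Il1b (2.57 ± 0.67) and Ccl2 (2.25 ± 0.75), all with wide errors. Of 51 genes with a C-type lectin-like domain and another name, 20 were tested, 6 were higher and 0 lower in the authors' deposited table (6 and 1 at an unadjusted p below 0.05). The share of 30.0% that rose is close to the 25.5% of all genes tested, while 0 were lower, beside 23.4% of all genes tested. Of the tested Clec4 genes 88.9% rose, but the lists differ in level and were not tested against each other. All 8 called Clec4 genes had a base mean of at least 100. The tested genes of the list with other names included scarce ones such as Bcan (base mean 5.36) and Klrb1b (2.39). Prg2 of the same list has no p-value, although its base mean was 2880. The largest rises of that list in the authors' deposited table were Vcan, a matrix proteoglycan (3.78 ± 0.31), the mannose receptor Mrc1 (3.40 ± 0.64), the endocytic receptor Ly75 (2.81 ± 0.28) and Cd302 (2.14 ± 0.28).

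Markers of other cells in which single Clec genes are known were counted in the same way, against 25.5% higher and 23.4% lower among all genes tested. Of 12 dendritic cell markers, the setting of Clec9a and Clec4a4, 8 were tested and 1 was higher, Itgax (2.59 ± 0.73), with 0 lower, in the authors' deposited table (1 and 1 at an unadjusted p below 0.05). Zbtb46 (base mean 3.75), Xcr1 (7.98) and Siglech (0.685) were scarce and Cd8a was listed at 0. Of 10 platelet and megakaryocyte markers, the setting of Clec1b, 8 were tested, 3 were higher and 0 lower in the authors' deposited table (4 and 0 at an unadjusted p below 0.05), and these were Vwf (3.82 ± 0.20), Gp1bb (2.17 ± 0.54) and Gp1ba (1.80 ± 0.58). Of 10 natural killer markers 4 were tested with 0 higher and 0 lower there (also 0 and 0 unadjusted), and of 10 lymphocyte markers 3 were tested, Cd3d (1.66 ± 0.56) and Cd79a (1.95 ± 0.71) being higher and Cd79b (-1.02 ± 0.26) lower. Of 8 Kupffer and tissue macrophage markers 6 were tested and 4 were higher, Mertk (4.17 ± 0.38), Marco (4.02 ± 0.66), Siglec1 (3.74 ± 0.40) and Emr1 (2.85 ± 0.19), with 0 lower (4 and 0 unadjusted), in the authors' deposited table, while Timd4 was listed at 0 like Clec4f. The summed base means were 2245 for the dendritic cell list, 2812 for the platelet list, 1351 for the natural killer list, 176 for the lymphocyte list and 4855 for the macrophage list. Single genes held much of each sum, in this order Itgax (1355), Itga2b (1053), Gzmb (990), Cd79b (149) and Emr1 (2910). Among natural killer markers Ncr1 (1.89) and Klrk1 (2.73) were scarce. The sums are therefore not amounts of these cell types. Their part in the Clec results was not tested.

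Because Clec4, Clec5a and Clec7a rose together, the sequence just before a RefSeq start was read for 25 of the 31 members from RefSeq (GRCm38.p6, 250 bases before each annotated start). Clec1a, Clec2f, Clec3a, Clec3b, Clec4a4 and Clec4n have no entry, and for the 3 members with more than 1 window the first was used. For Clec12a, Clec4a2 and Clec18a the RefSeq start lies 7.55, 16.3 and 10.7 kilobases inside the GENCODE M21 gene model, so their windows precede an internal start and not the model's first base. The 4 printed here are 3 genes that rose, with one receptor for each activating adaptor or tail, and Clec12a, which fell. Capitals mark GAGGAA, the core of the site bound by the myeloid factor PU.1, and TTGCNNAA, a C/EBP form, both on either strand. They also mark TGANTCA, the AP-1 form, on either strand, and TATAAA on the gene's strand. None of these motifs overlap in the 4 sequences.
Clec4e (minus strand, chr6:123289872-123290121): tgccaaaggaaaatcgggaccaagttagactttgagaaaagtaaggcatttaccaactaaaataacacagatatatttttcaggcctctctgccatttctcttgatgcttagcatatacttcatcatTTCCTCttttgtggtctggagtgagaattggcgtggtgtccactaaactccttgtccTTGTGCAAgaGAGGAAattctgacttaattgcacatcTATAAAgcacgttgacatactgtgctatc
Clec7a (minus strand, chr6:129472780-129473029): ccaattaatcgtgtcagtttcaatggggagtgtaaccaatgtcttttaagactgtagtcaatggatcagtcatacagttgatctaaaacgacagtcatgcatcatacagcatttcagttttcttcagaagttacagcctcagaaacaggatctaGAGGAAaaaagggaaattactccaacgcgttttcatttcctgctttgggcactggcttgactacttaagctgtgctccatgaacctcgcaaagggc
Clec5a (minus strand, chr6:40585806-40586055): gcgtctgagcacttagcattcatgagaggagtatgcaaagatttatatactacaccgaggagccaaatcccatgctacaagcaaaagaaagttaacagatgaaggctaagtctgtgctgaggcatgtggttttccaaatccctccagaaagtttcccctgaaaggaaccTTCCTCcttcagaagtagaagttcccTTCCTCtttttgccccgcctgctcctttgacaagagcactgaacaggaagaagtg
Clec12a (plus strand, chr6:129349994-129350243): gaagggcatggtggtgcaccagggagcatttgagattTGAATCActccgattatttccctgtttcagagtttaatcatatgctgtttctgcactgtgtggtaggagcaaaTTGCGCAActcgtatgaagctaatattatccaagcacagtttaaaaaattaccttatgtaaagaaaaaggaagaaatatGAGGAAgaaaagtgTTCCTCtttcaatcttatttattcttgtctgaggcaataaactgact

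In positions counted back from the start, GAGGAA lay at -56 and -123 in Clec4e, at -96 in Clec7a, at -55 and -81 in Clec5a and at -47 and -61 in Clec12a. Clec4e also held TATAAA at -29 and TTGCNNAA at -66, and Clec12a held TTGCNNAA at -140 and TGANTCA at -213. Among the 25 promoters, GAGGAA was present in 9 of 13 of genes called higher (69.2%), 2 of 3 called lower and 2 of 9 not called or not tested (22.2%). All 14 members with a base mean of at least 100 were called, and these 9 had base means of at most 15.1. A link of the motif to the call and one to the level therefore cannot be told apart here. It is present in 23.3% of all 32851 RefSeq promoter windows of this length. TTGCNNAA was in 2 of 13 genes called higher and 2 of 3 called lower, beside 9.56% of all windows. TGANTCA was in 0 of 13 called higher, 1 of 3 called lower and 4 of 9 others, beside 6.75%, and TATAAA was in 2, 0 and 2 of these, beside 7.59%. Spi1, the gene of PU.1, stood at 0.71 ± 0.13 in the authors' deposited table (adjusted p = 4.7e-07). A match is a string of letters and not a shown binding site. The part of these motifs or of Spi1 in the Clec results was not tested.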

How the data were processed

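RNA was sequenced from 12 samples in 4 groups, of which the 3 OHT and 3 EtOH samples of Riok2fl/fl cells enter the table used here. DESeq2, DESeq, HTSeq 0.9.1, STAR 2.7.2b and Trimmomatic 0.38.0 are the tools, and mm10 the build, per the submitters' processing notes. Annotation, strand and counting options were not given in the sources used here. Per gene the authors deposited a signal in normalised reads (the base mean), a log2 fold change and its SE, a Wald score, and p-values before and after adjustment. The deposited score equalled fold over SE to within 7.6e-08 and the adjusted p-values were within 2.3e-07 of Benjamini-Hochberg values recomputed for 13814 genes. Base means summed to 20307732 over 24221 rows, 6693 of them at 0. There are 0 columns per sample, so no test of samples was made and the authors' adjusted p below 0.05 was used throughout.

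Intervals are 95% limits from the SE (1.96 SE on the log2 scale). Levels per group were computed from base mean and fold. Exon lengths came from GENCODE M21. Reads per library were solved from base means within 5e-09 (8e-09 from a base mean of 10). On reads simulated with these steps, 100% of 258 genes (base mean up to 6) and 82.5% of 217 (6 to 11) were recovered. A wrong single solution could not arise in that simulation, and error in the estimated steps was not simulated. Floors replace 0 by 3 reads over the EtOH side and take the OHT reads as exact, so the ratios are not limits of the fold. Python 3.11.15 and pandas 2.3.3 were used. All Clec rows but 1 are members, every member is named, and of each gene list the 4 largest called rises and falls were named, with fixed adaptors and kinases of the signalling list, from which 1 gene is not reported here. Members and lists were chosen with earlier results of these data known.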

Additional observations from a re-analysis of the deposited data

How the results depend on the processing

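Of the 14 higher and 4 lower calls, 12 and 1 were left at an adjusted p below 0.01 and 11 and 1 below 0.001, and the lower call left was Clec2i. The falls of Clec12a, Clec3a and Clec11a therefore rest on adjusted p between 0.0168 and 0.0336. Genes with an SE of at most 0.5 gave 9 higher and 3 lower of 12 tested, and a base mean of at least 100 gave 12 and 2 of 14. Without the Clec4a, Clec4b and Clec2 subfamilies 7 were higher and 3 lower of 13. A Benjamini-Hochberg adjustment over all 17477 rows with a p-value gave 13 and 4, and Clec9a lost its call (adjusted p = 0.0631). The median log2 fold change of the Clec5/7/12 group was 1.18, 1.76 at a base mean of at least 100, which removes Clec12b, and 0.60 when the second chromosome 6 cluster took the place of the name group. Medians of the Clec4 and other groups kept their sign under each alternative run. They ran from 2.01 to 2.20 for Clec4 (2.13 in the main run) and from 0.04 to 0.74 for the other group (0.36). These moves were smaller than the median SE of single genes, 0.446 and 0.648, which is not an error of a group median. The 0 lower calls of the signalling list stayed 0 at an adjusted p below 0.01 (22 higher in place of 26). No paired analysis was possible because the table holds no values per sample, and for the same reason no replicate could be left out. Depth limits the genes with a base mean up to 10.1, which had 1 to 55 reads in all.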
